A study of Mus musculus with 8 samples.

Results

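Globin genes encode the protein chains of haemoglobin, and 7 probe sets of the array named them and nothing else. They were chosen by name: a probe set was taken if every gene symbol in its platform annotation was one of 10, namely the adult alpha globins Hba-a1 and Hba-a2, the adult beta globins Hbb-b1, Hbb-b2, Hbb-bs and Hbb-bt, the embryonic globins Hba-x, Hbb-y and Hbb-bh1, and the alpha globin chaperone Ahsp. The 7 are among 35556 probe sets on each array, of which 23410 carried a gene symbol and were tested. They cover 9 of the 10 symbols, since no probe set used here was annotated to Ahsp, which is not analysed here.

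Each of 8 separate RNA preparations from bone marrow of C57BL/6J mice was hybridised to its own Affymetrix array. A preparation pooled 4 or 6 mice, whose age and sex were not given in the sources used here. The 4 groups, with 2 arrays each, were KLS and MEP cells from mice labelled ∆Hmga2 (TG), which carry a shortened form of the chromatin protein gene Hmga2, and KLS and MEP cells from wildtype mice (WT). What drives the transgene was not stated there either. KLS stands for c-Kit+ Lin- Sca-1+, the marrow fraction of stem and multipotent cells, and MEP for the progenitors of red cells and megakaryocytes; both were obtained by flow sorting. Values are log2 signals that were quantile normalized here, a step that gives every array the same spread of values, and a difference of 1 is a doubling.

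Haemoglobin is built from alpha-type chains, encoded in a cluster on chromosome 11, and beta-type chains, encoded in a cluster on chromosome 7. In each mouse cluster embryonic genes precede the adult ones: Hba-x (zeta), Hbb-y (epsilon-y) and Hbb-bh1 (beta-h1) serve the primitive red cells of the yolk sac, and the adult genes serve red cells made in fetal liver and bone marrow. Adult globin RNA accumulates late in red cell maturation, after the progenitor stages, and Ahsp protein holds free alpha chains until they pair. C57BL/6 mice carry the Hbb-bs and Hbb-bt pair of adult beta genes, and Hbb-b1 and Hbb-b2 are the pair of another beta globin haplotype. Each adult probe set used here was annotated to both alpha genes or to all 4 beta genes, so its signal cannot be assigned to a single gene.

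Promoter sequence shows how closely the members are related outside the transcript, and what short elements they share. RefSeq's table (build GRCm38.p6) held promoters for 6 of the genes, and the 150 bases before the transcription start are shown for 5 of them, 5′ to 3′. Capitals mark matches to 4 short motifs, searched on both strands: the CCAAT box, the CACCC box bound by erythroid Krueppel-type factors, the GATAA core of GATA factor sites, and the TATAA of the TATA box. The windows are Hba-a1 at chr11:32283522-32283671 and Hba-x at chr11:32276450-32276599 on the plus strand, and Hbb-bs at chr7:103827929-103828078, Hbb-bt at chr7:103813924-103814073 and Hbb-y at chr7:103853208-103853357 on the minus strand.
Hba-a1: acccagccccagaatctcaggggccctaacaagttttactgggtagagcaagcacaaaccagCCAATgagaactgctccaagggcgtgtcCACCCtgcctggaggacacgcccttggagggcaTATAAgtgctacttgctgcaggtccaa
Hbb-bs: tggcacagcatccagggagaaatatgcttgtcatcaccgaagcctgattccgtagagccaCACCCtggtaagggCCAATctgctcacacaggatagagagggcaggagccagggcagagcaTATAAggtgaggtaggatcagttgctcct
Hbb-bt: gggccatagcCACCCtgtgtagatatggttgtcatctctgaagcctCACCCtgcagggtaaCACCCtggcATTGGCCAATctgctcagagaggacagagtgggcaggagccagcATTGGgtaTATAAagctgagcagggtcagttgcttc
Hba-x: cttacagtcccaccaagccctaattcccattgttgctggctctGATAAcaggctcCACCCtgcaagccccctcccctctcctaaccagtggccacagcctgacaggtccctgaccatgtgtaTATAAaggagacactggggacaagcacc
Hbb-y: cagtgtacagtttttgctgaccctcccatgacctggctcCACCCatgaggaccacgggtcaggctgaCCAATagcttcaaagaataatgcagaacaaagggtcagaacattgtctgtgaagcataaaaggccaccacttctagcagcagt

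The Hba-a1 and Hba-a2 windows aligned with 147 identical bases, 0 mismatches and 6 gap positions at the ends, where the annotated starts are offset, so Hba-a2 (chr11:32296342-32296491, plus strand) is not repeated here. Hbb-bs and Hbb-bt were identical at 115 of 156 aligned positions (73.7%). The adult promoters each held the CCAAT box, the CACCC box and the TATA box, and the last of these began 27 to 30 bases before the start. Hbb-bt had 3 matches to CCAAT and 3 to CACCC, where Hbb-bs and both alpha genes had 1 of each. Of the embryonic pair shown, Hba-x held a CACCC box, a GATAA core and a TATA box, and Hbb-y held a CCAAT box and a CACCC box. Among the 150-base windows of 32851 promoters, 24.5% held a CCAAT box, 37.4% a CACCC box, 13.3% a GATAA core and 14.2% a TATA box. These matches describe letters only, and no binding was measured.

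The sorts were checked on marker genes before the globins were read. By value all 7 measured stem and multipotent markers and all 12 granulocyte and monocyte markers were higher in KLS than in MEP cells (medians 2.05 and 1.19). Of these, 4 of 7 and 3 of 12 passed the threshold (adjusted p under 0.05), against a background of 0.308% of probe sets called in this comparison (72 of 23410). Hlf, a stem cell transcription factor, was higher by 2.24 ± 0.10 (SE; limma adjusted p = 0.00086) and passed under all 17 alternatives of processing and array choice, while the others (Cd34, Flt3 and Mecom; Ctsg, Mpo and Elane) each passed under 8 or 9 of them. All 9 early erythroid markers were lower in KLS than in MEP cells by value (median -0.29), and 0 of them passed. Of 5 measured megakaryocyte markers, 4 were higher in KLS than in MEP cells by value (median 0.27). All 6 macrophage markers (median 0.58) and 8 of 9 lymphoid markers (median 0.19) were also higher in KLS cells. From these 3 lists 0 markers passed. The array WT MEP 1 stood apart from the other MEP arrays. Its mean over 9 lymphoid markers was 7.56, against 6.09 to 6.28 on the others. Over 12 granulocyte and monocyte markers it was 9.72, against 8.20 to 8.97. Globin results that use MEP cells are also given without it. The 8 preparations are separate pools of mice, and p-values measure the spread between them as moderated by limma. That step draws the spread of each probe set towards a value shared by all probe sets.

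Adult alpha globin RNA was near the top of the scale in every sort, in stem-type KLS cells as well as in erythroid MEP cells. The first of its 2 probe sets (10375051, annotated to Hba-a2 and Hba-a1) read 13.23 and 13.43 in WT KLS, 13.08 and 13.30 in TG KLS, 13.26 and 13.36 in WT MEP, and 13.20 and 13.26 in TG MEP cells. The second (10375058, same genes) read 13.20 and 13.38, 13.05 and 13.26, 13.30 and 13.34, and 13.20 and 13.22 in the same order. On both, TG KLS 1 was the lowest array and WT KLS 2 the highest, so the extremes lay in KLS cells, and the KLS arrays spanned the MEP arrays. The probe sets lay 0.0076 to 0.052 apart on each array and followed one another over the 8 arrays (Pearson's r 0.964, Spearman's rho 0.958, a description of one transcript pair read by both).

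Adult beta globin showed the same picture with a smaller spread. Its first probe set (10566254, annotated to Hbb-bt, Hbb-bs, Hbb-b2 and Hbb-b1) read 13.34 and 13.47 in WT KLS, 13.30 and 13.47 in TG KLS, 13.40 and 13.40 in WT MEP, and 13.33 and 13.40 in TG MEP cells. The second (10566258, same genes) read 13.30 and 13.40, 13.33 and 13.38, 13.38 and 13.38, and 13.31 and 13.36. No group stood clear of all the others on either probe set, and the replicate 1 array was the lower one in both KLS groups. Equal values arise in part from the normalization, which gives probe sets of equal rank the same value; as deposited, the second probe set ranged from 13.24 to 13.45 over the arrays instead of 13.30 to 13.40. The mean of the alpha and that of the beta probe sets followed each other over the 8 arrays (r 0.834, rho 0.922), which share their libraries and scale.

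The embryonic globins were read at low or middle positions of the array scale. Hba-x (10375046), the zeta chain gene, read 6.41 and 6.44 in WT KLS, 6.21 and 6.38 in TG KLS, 6.34 and 6.67 in WT MEP, and 6.26 and 6.51 in TG MEP cells. Between 45.6% and 56.4% of all probe sets on an array lay below it. Hbb-y (10566272), the epsilon-y chain gene, read 5.0 and 5.34, 5.32 and 4.78, 5.18 and 5.26, and 5.31 and 5.10 in the same order, with 16.8% to 26.0% of probe sets below it. Its replicates differed most in TG KLS cells, whose arrays enclosed those of both MEP groups. Hbb-bh1 (10566268), the beta-h1 chain gene, read 4.14 and 4.18, 4.42 and 4.26, 4.34 and 4.54, and 4.20 and 4.31, with 9.89% to 13.9% of probe sets below it. Whether any embryonic globin RNA was present cannot be read from these values, since the files give no detection call.

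**Figure D1:**
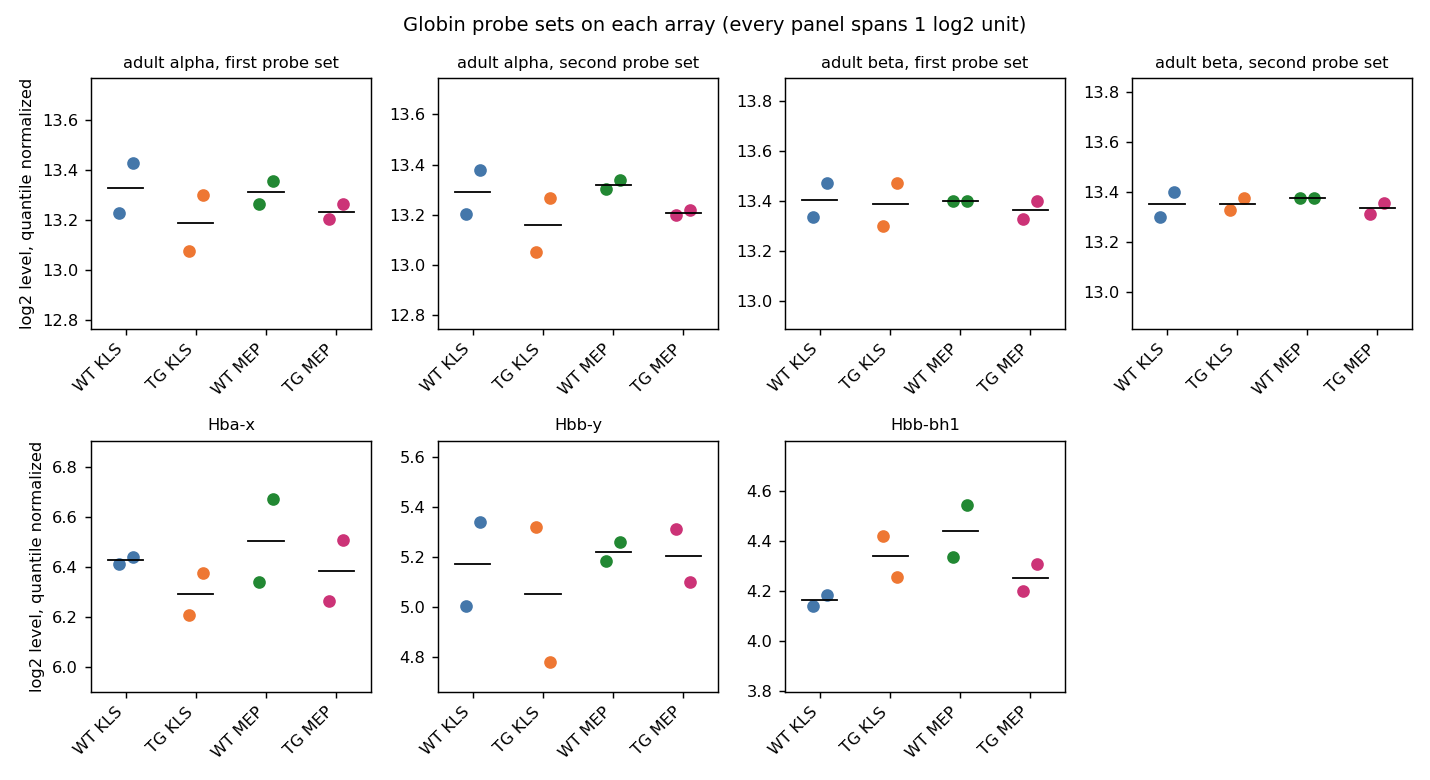
Log2 level (quantile normalized) of the 7 globin probe sets on each of the 8 arrays, with 1 panel per probe set; points are arrays, black lines are group means of 2 arrays, and every panel spans 1 log2 unit. The adult alpha and beta panels sit between 13.05 and 13.47 in all groups, and the embryonic genes between 4.14 and 6.67.

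The position of the adult globins at the top of the scale bears on how a difference can be read. The highest value on an array lay between 13.84 and 14.03, and 48 to 97 probe sets per array (0.135% to 0.273%) exceeded 13. Only 7 to 52 probe sets of an array read above an adult alpha globin probe set, and 6 to 14 above an adult beta globin one. Over the 8 arrays the range from lowest to highest was 0.35 and 0.33 for the alpha probe sets, and 0.17 and 0.10 for the beta ones. The median range was 0.14 among the 73 probe sets with a mean over 13, and 0.21 between 12 and 13. In the band from 8 to 10 it was 0.66 and from 6 to 8 it was 0.64, so probe sets near the top of the scale differed less between arrays than those in these bands. How far the scale narrows differences at that level was not tested. The pooled SD within groups was 0.11 and 0.098 for the alpha probe sets, and 0.083 and 0.043 for the beta ones. Their limma SEs for TG minus WT in KLS cells were larger, at 0.14, 0.13, 0.13 and 0.12. The SEs and intervals of the adult globins are thus wider than their own arrays alone would give. The embryonic globins ranged over 0.46 (Hba-x), 0.40 (Hbb-bh1) and 0.56 (Hbb-y), each below the median of its band (0.64 for Hba-x, 0.57 for the other two).

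**Figure D2:**
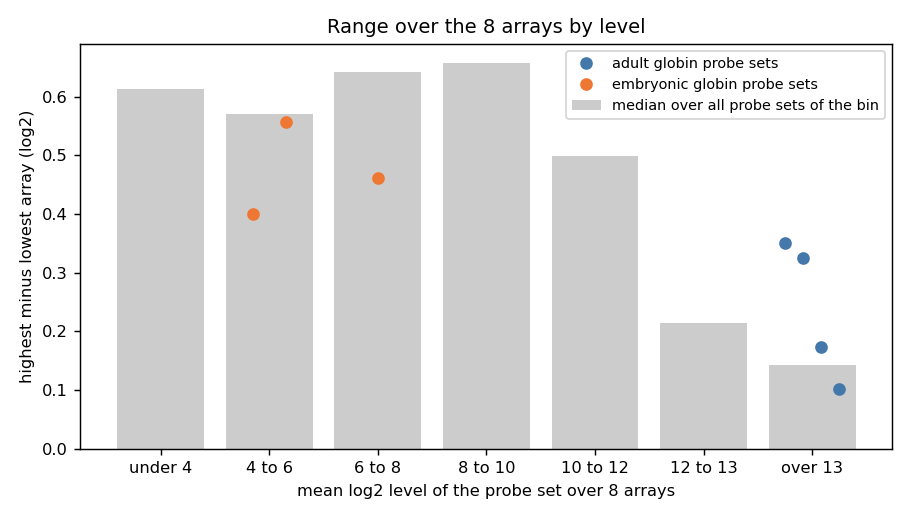
Highest minus lowest array (log2) against the mean level of a probe set in bands; grey bars are the median over all probe sets of the band, points are the globin probe sets, and the offset of points within a band has no meaning. Bars fall from 0.66 in the band of 8 to 10 to 0.14 above 13, where the 4 adult globin points lie between 0.10 and 0.35.

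The comparison of KLS with MEP cells asks whether the globins follow the sort. None of the 7 probe sets passed limma's threshold (adjusted p under 0.05; the background is 0.308%), and 0 of 7 had an unadjusted p under 0.05. The adult globin differences, KLS minus MEP, ran from -0.04 to 0.01, with 95% intervals between -0.26 and 0.22, which as folds is 0.835 to 1.17. The embryonic genes were lower in KLS cells by value, at -0.08 ± 0.11 (SE) for Hba-x, -0.10 ± 0.15 for Hbb-y and -0.10 ± 0.10 for Hbb-bh1 (adjusted p from 0.798 to 0.884). Without WT MEP 1 the adult differences ran from -0.05 to 0.01, Hba-x was at -0.16, Hbb-bh1 at -0.15 and Hbb-y at -0.12, and 0 of 7 passed. KLS and MEP arrays overlapped for all 7, where 8.8% of all probe sets had none. The median difference over all probe sets tested was 0.01. In these bulk samples, fewer cells of a type and less RNA per cell cannot be told apart, and the share of red cell RNA in each sort was not measured.

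Genes of erythroid commitment lay lower in KLS than in MEP cells by value. Gata1, the master erythroid transcription factor, read 7.69, 7.55, 7.91 and 7.99 on the KLS arrays and 8.07, 8.37, 8.37 and 8.31 on the MEP arrays. These did not overlap, as in 8.8% of all probe sets (difference -0.50 ± 0.10, limma adjusted p = 0.0901). Tfrc, the transferrin receptor, differed by -0.56 ± 0.09 (adjusted p = 0.0755). Without WT MEP 1 the differences were -0.57 for Gata1 and -0.62 for Tfrc. Over 17 alternatives they ran from -0.57 to -0.42 for Gata1 and from -0.62 to -0.51 for Tfrc. Of 17 measured haem synthesis and transport genes, 14 had values below 0 (median -0.34 against 0.01 for all probe sets), and 0 passed. Cpox and Fech, enzymes of the last steps of haem synthesis, differed by -0.49 ± 0.10 and -0.68 ± 0.14 (adjusted p = 0.0889 and 0.0910). The difference between a globin and these genes was not tested.

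The comparison of TG with WT KLS cells asks whether the shortened Hmga2 changed globin RNA in the stem-type sort. By limma 0 of 7 probe sets passed, as did 0% of all 23410 (566 had an unadjusted p under 0.05, and 0 globins). Adult alpha globin differed by -0.14 ± 0.14 and -0.13 ± 0.13, and adult beta globin by -0.02 ± 0.13 and 0.00 ± 0.12 (TG minus WT, SE, n = 2 each; adjusted p = 0.99999). The 95% intervals of these 4 spanned folds of 0.723 to 1.22. Hba-x was lower in TG (-0.13 ± 0.16) and Hbb-bh1 higher (0.18 ± 0.14), each without overlap of the arrays, as in 28.2% of all probe sets; Hbb-y differed by -0.12 ± 0.21. As deposited, the Hba-x arrays overlapped, since TG KLS 2 read 6.423 and WT KLS 1 read 6.417.

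In MEP cells the genotype difference was below 0 for all 7 probe sets, as for 50.3% of all probe sets, and past the threshold for 0 of them. The 7 are not separate readings, since 4 of them are 2 pairs annotated to the same genes. By limma 0% of all probe sets passed (786 had an unadjusted p under 0.05, and 0 globins). Adult alpha globin differed by -0.08 ± 0.14 and -0.11 ± 0.13, and adult beta globin by -0.04 ± 0.13 and -0.04 ± 0.12. Hba-x differed by -0.12 ± 0.16, Hbb-y by -0.02 ± 0.21 and Hbb-bh1 by -0.18 ± 0.14 (adjusted p = 0.99998 for each of the 7). The TG and WT arrays did not overlap for 3 of the 7 (1 alpha, 1 beta, and Hbb-bh1), with TG lower, where 31.2% of all probe sets did not overlap in either direction. Without WT MEP 1 the 4 adult differences were -0.12, -0.12, -0.04 and -0.04, those of Hba-x and Hbb-bh1 were -0.28 and -0.29, and that of Hbb-y was -0.05, with 0 past the threshold. The sign was not stable to leaving out other MEP arrays: without WT MEP 2 or without TG MEP 1 the Hba-x difference turned positive (up to 0.046), and that of Hbb-y did without WT MEP 2 or without TG MEP 2 (up to 0.090). On the deposited scale both alpha probe sets had TG below WT MEP arrays without overlap (13.24 and 13.23 against 13.30 and 13.35 on the first), and both beta probe sets overlapped, so which adult probe sets separated the arrays also turned on the scaling. The sign depended on it for the dimmer beta-type genes: as deposited, Hbb-y differed by 0.13 and Hbb-bh1 by 0.0029.

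Averaged over both cell types, the genotype differences of the 7 ran from -0.13 (Hba-x) to -0.0044 (Hbb-bh1), against a median of -0.01 over all probe sets, and 0 of 7 passed, as did 0% of all probe sets. Not every sign held: Hbb-bh1 was at 0.081 as deposited and 0.082 median centred, and its sign changed under 6 of 16 alternatives. Without WT MEP 1 the 7 ran from -0.20 (Hba-x) to -0.02 (a beta probe set). Adult alpha globin differed by -0.11 ± 0.10 and -0.12 ± 0.09, and adult beta globin by -0.03 ± 0.09 and -0.02 ± 0.08. The intervals of the 4 adult probe sets spanned folds of 0.788 to 1.14. These values share their arrays with the comparisons within KLS and within MEP cells.

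Whether the genotype difference itself differed between KLS and MEP cells was tested as an interaction, which 0% of all probe sets passed. Hbb-bh1 had the globins' largest value: TG was above WT in KLS cells and below it in MEP cells, and the difference of differences was 0.36 ± 0.19 (95% interval -0.09 to 0.81, adjusted p = 0.9999). For the 4 adult probe sets it ran from -0.06 to 0.04, for Hba-x it was -0.01 and for Hbb-y -0.10. Without WT MEP 1 it was 0.46 for Hbb-bh1, 0.15 for Hba-x and -0.07 for Hbb-y, and 0 of 7 passed.

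**Figure D3:**
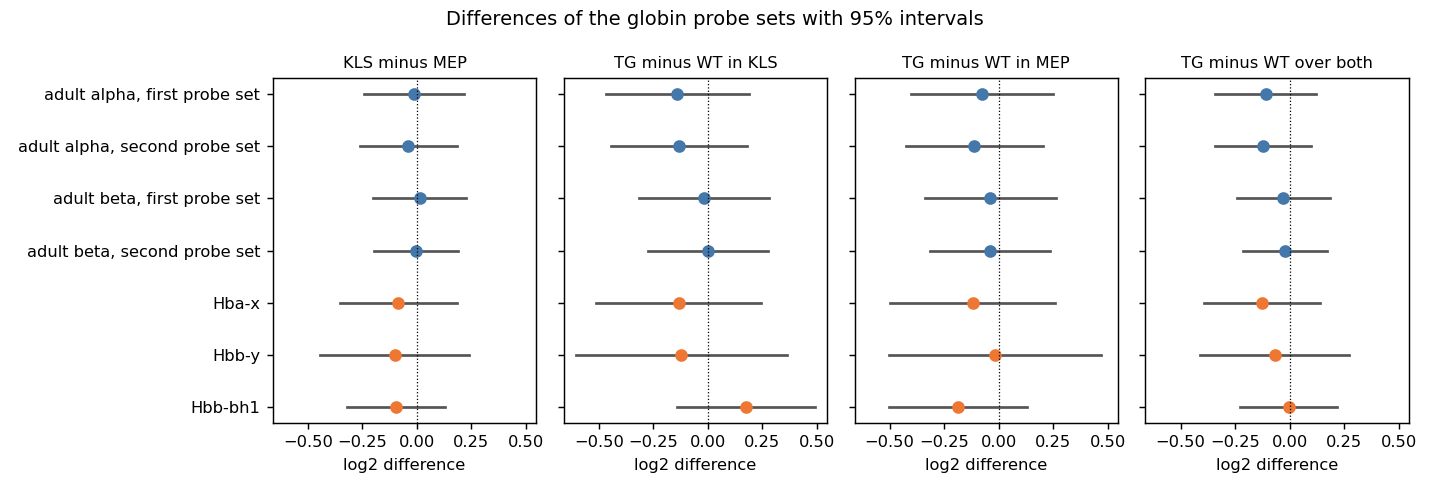
Log2 differences of the 7 globin probe sets (points; blue, adult; orange, embryonic) with limma's 95% intervals (lines) in 4 comparisons. Every interval crosses 0, and the adult globins lie between -0.14 and 0.01.

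A list of late erythroblast genes was read on the same arrays and set beside the globins, and it does not measure the share of red cell RNA. The list holds 10 measured genes of maturing red cells, such as Slc4a1 (the anion exchanger band 3), Alas2 (the erythroid enzyme that starts haem synthesis) and Slc25a37 (mitochondrial iron import). Their mean was 8.25 and 8.93 in WT KLS, 8.07 and 8.41 in TG KLS, 9.25 and 9.03 in WT MEP, and 8.16 and 8.45 in TG MEP cells. Both TG MEP arrays lay below both WT MEP arrays, while the KLS groups overlapped, and single genes ranged over 0.60 to 2.16 between arrays. All 10 were lower in TG than in WT by value in MEP cells (median -0.73, and -0.71 without WT MEP 1) and in KLS cells (median -0.32), and 0 passed in either, as with every probe set. The KLS count rested on the array WT KLS 2: without it 5 of 10 were below 0 and 5 above (median 0.02). Without TG KLS 1 it was 7 of 10 (median -0.23), and as deposited or median centred it was 9 of 10.

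Alas2 read 8.58 and 9.27 in WT KLS, 8.40 and 8.44 in TG KLS, 9.63 and 9.26 in WT MEP, and 8.11 and 8.37 in TG MEP cells. In MEP cells TG minus WT was -1.20 ± 0.24 for Alas2, -1.46 ± 0.37 for Slc4a1, -1.06 ± 0.23 for Slc25a37 and -1.44 ± 0.25 for Xpo7, a nuclear exporter of maturing erythroblasts (adjusted p = 0.99998 for each). These were the largest falls among the 10 late genes, whose median was -0.73. Bnip3l, another of the 10, differed least, at 10.99 and 11.08 in WT MEP and 10.88 and 10.98 in TG MEP cells. Across the alternatives the Alas2 value ran from -1.38 to -1.02 and 0 of 18 called it. In MEP cells all 12 granulocyte and monocyte markers were also lower in TG by value (median -1.04, and -0.73 without WT MEP 1), with 0 called. Of 9 lymphoid markers 7 were lower (median -0.85, 0 called). Without WT MEP 1 the median was -0.11, and without WT MEP 2 it was -1.41. The latter leaves WT MEP 1, the MEP array with the highest lymphoid mean (7.56), as the only WT MEP array. The part of the granulocyte, monocyte and lymphoid markers in the erythroid values was not tested.

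Array by array, the adult globins were set beside the late and the early erythroid genes. The mean of the 4 adult probe sets followed Bnip3l, a mitophagy receptor of maturing red cells (Pearson's r 0.824 over 8 arrays), Slc4a1 (r 0.816) and Trim10, an erythroid TRIM protein (r 0.784). These are the 3 highest of the 10 late genes, which ran from 0.400 (Fech) to 0.824 with a median of 0.673, and Alas2 gave 0.637. The 9 early erythroid genes ran from -0.295 to 0.344 with a median of -0.0988, which is the value of Klf1, the activator of the adult beta globin promoter, and 4 of them were above 0. WT KLS 2 was high, and TG KLS 1 low, in adult globins and in the late list alike. Other arrays did not match: the late list was highest on WT MEP 1 (9.25). There adult alpha and beta globin read 13.28 and 13.39, below WT KLS 2 (13.40 and 13.44). On TG KLS 2 the late list read 8.41 and beta globin 13.43, near its highest value. This is a description over 8 arrays that share normalization and carries no test. The genes most like the adult globins out of 18610 were Gch1 (r 0.949), Hoxaas2 (0.937), Mir200b (0.922), Kctd15 (0.913), Fam243 (0.904), Fn3k (0.903), Icos (0.897) and Polb (0.894). These are the highest of 18610 values of r over only 8 arrays. Gch1 and Fn3k ranged over 1.57 between arrays and Polb over 0.55, while Icos ranged over 0.15.

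**Figure D4:**
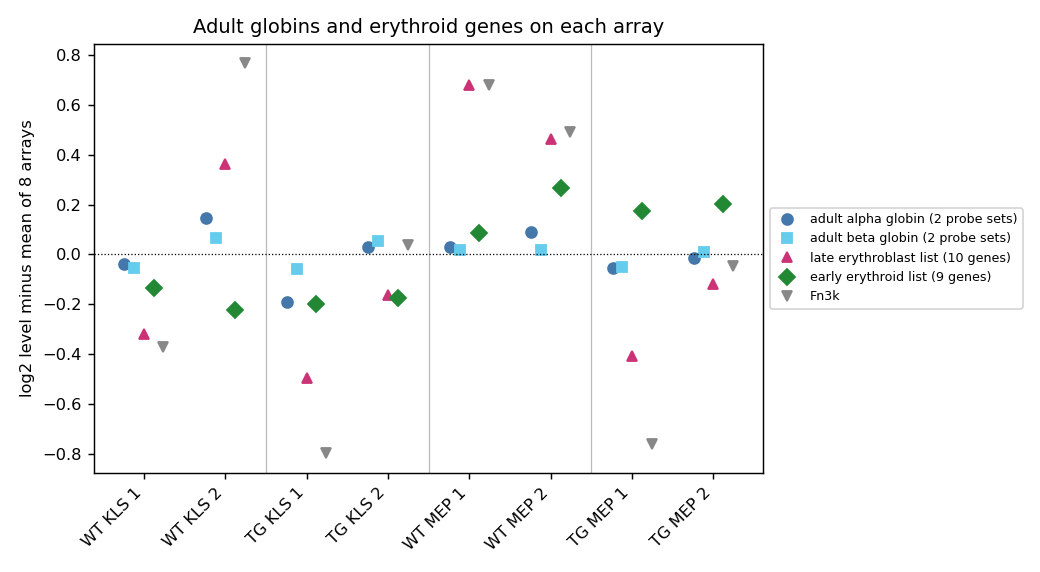
Log2 level minus the mean of the 8 arrays (vertical axis) for adult alpha and beta globin, the late erythroblast list, the early erythroid list and Fn3k on each array; points are offset sideways for legibility and grey lines part the groups. Late erythroblast genes are high on WT KLS 2 and both WT MEP arrays, and on every array both globin points lie closer to 0 than the late erythroblast point.

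Other globins and the genes that act on globin expression were measured too. The theta globins Hbq1b and Hbq1a lie among the alpha genes. Hbq1b read 6.79 and 7.98 in WT KLS, 7.07 and 7.18 in TG KLS, 7.86 and 7.83 in WT MEP, and 7.16 and 7.27 in TG MEP cells, and its correlation with the adult globins was 0.763. Its TG arrays lay below WT in MEP cells (-0.63 ± 0.33, limma adjusted p = 0.99998). Those of Hbq1a did in KLS cells (-0.88 ± 0.26, adjusted p = 0.99999) and in MEP cells, at 5.70 and 6.12 against 6.22 and 6.29. Neither gene passed. Arrays did not overlap for 31.2% of all probe sets in MEP cells and 28.2% in KLS cells. Of the 6 globins of other loci and theta globins, 0 passed in any comparison. TG minus WT was below 0 for all 6 in KLS cells (median -0.13 against -0.02 over all probe sets), and for 3 of 6 in MEP cells (median 0.02; 4 of 6 and -0.14 without WT MEP 1). The KLS count was 3 of 6 without TG KLS 2, and 4 of 6 without WT KLS 1 or without WT KLS 2.

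The 20 globin gene regulators, among them Gata1, Klf1, Bcl11a and Sox6, were all measured, and 0 passed in any comparison. Nr2c1, a nuclear receptor that represses embryonic beta-type globin genes, was higher in TG than in WT KLS cells by 0.59 ± 0.12 (limma adjusted p = 0.99999). Its arrays did not overlap, as in 28.2% of all probe sets, and it had the smallest p of the 20 in this comparison. Sox6, a repressor of the epsilon-y gene, was at -0.46 ± 0.23 for TG minus WT in MEP cells (adjusted p = 0.99998), and at -0.25 ± 0.26 without WT MEP 1. Bcl11a, a repressor of embryonic globin genes, differed by -0.06 ± 0.20 in KLS and -0.09 ± 0.20 in MEP cells. The embryonic beta-type genes Hbb-y and Hbb-bh1 themselves did not pass in any comparison.

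Among 11 measured genes that protect red cells from free haemoglobin or oxidants, only Hp passed between the sorts. The share over all probe sets was 0.308% (72 of 23410). Hp, haptoglobin, binds free haemoglobin and is also made by neutrophils; it read 9.22, 9.40, 9.48 and 8.46 on the KLS arrays and 8.24, 7.80, 6.84 and 6.78 on the MEP arrays (1.73 ± 0.22, adjusted p = 0.0368). It did not pass under 9 of 17 alternatives, among them the values as deposited, median centring and leaving out any of 6 arrays (adjusted p up to 0.144). On those arrays the granulocyte markers were higher in KLS cells too, at means of 10.05 to 10.55 in KLS and 8.20 to 9.72 in MEP cells, and their part in the Hp value was not tested. Prdx2, the abundant red cell peroxiredoxin, differed between sorts by -0.21 ± 0.13 (adjusted p = 0.600).

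The 8 genes of haem-regulated translation and stress had 0 passing in any comparison. Eif2ak1, the haem-regulated kinase that limits globin translation, differed between sorts by -0.28 ± 0.10 (adjusted p = 0.251) and by genotype in MEP cells by -0.15 ± 0.13. Of 12 genes listed as neighbours of globin clusters, 0 passed in any comparison. Their positions in the mouse genome were not checked here, so not all of them need lie beside a mouse cluster. Mpg, a DNA repair gene next to the alpha cluster, was at -0.38 ± 0.21 for TG minus WT in MEP cells. The median of the listed genes was -0.05, against -0.0012 over all probe sets.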

How the data were processed

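The authors deposited log2 values for 35556 probe sets on each of 8 arrays, made with Affymetrix Expression Console per the submitters' processing notes. The log2 scale was read from the deposited values; how probes were summarized and arrays normalized was not given in the sources used here. Deposited array medians spanned 0.106, above the limit of 0.1 that was set, so arrays were quantile normalized. The platform annotation, which can be old, gave 1 symbol for 21789 probe sets, several for 1621 and none for 12146; the 9 globin symbols matched RefSeq's GRCm38.p6 table by Entrez identifier, used for names. limma 3.58.1 in R 4.3.3 fitted 4 group means over 8 arrays (4 residual and 3.46 prior degrees of freedom), and p-values were two-sided and adjusted by Benjamini-Hochberg over 23410 probe sets. The code was tested on simulated data. The number of arrays limits the precision. Promoter windows were aligned with Biopython 1.88.

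Every globin probe set is named. Each gene list adds, per comparison, up to 4 members past the threshold or the member with the smallest p, of which a part is printed, and the 8 genes most like the adult globins are named. Other list genes (Klf1, Bcl11a, Prdx2, Slc4a1 in MEP cells, Slc25a37, the theta globins where not picked by p, Bnip3l and Trim10) were named after their values were seen. The globins and the lists were chosen with earlier results of these data known. Alternatives were other scalings, probe set filters, variance models, weights per array, a block for the replicate number and leaving out each array. Some list genes were not analysed here.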

Additional observations from a re-analysis of the deposited data

Results flagged for a closer look

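Hbb-bh1 was picked out because the genotype difference had opposite signs in the sorts, with every TG array above every WT array in KLS cells and below in MEP cells. Its interaction was 0.36 (limma adjusted p = 0.9999), and across alternatives it ran from 0.155 as deposited to 0.464 without WT MEP replicate 1. As deposited the MEP difference was 0.0029, so the opposite signs rest on the scaling. Outlying arrays were not tested for, since groups hold 2 arrays.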

How the results depend on the processing

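No globin probe set passed the threshold under any alternative that was run: of 599 globin values under alternatives, the smallest limma adjusted p was 0.628, 63 changed sign and 32 moved by more than the pooled spread between replicates, all of them uncalled. The count of all probe sets called between KLS and MEP cells, 72, was 41 as deposited, 1 after median centring, 1 over all probe sets with or without a symbol, 179 over probe sets with 1 symbol plus the globins, and 499 at an adjusted p under 0.10. Leaving out 1 array, it ran from 1 (without WT KLS 2, TG KLS 1, TG MEP 1 or TG MEP 2) to 473 (without WT MEP 1), and was 3 without WT KLS 1, 19 without TG KLS 2 and 20 without WT MEP 2. The genotype counts, 0 in each comparison, ran from 0 to 33 in MEP cells and from 0 to 9 over both cell types, with the highest without WT MEP 2 and no globin among the calls. The cause of these shifts was not tested. With the replicate number as a block, 125 probe sets were called between the sorts; replicate differences correlated at 0.53 between the KLS groups and at 0.22 and 0.35 between these and WT MEP, but at -0.23 to -0.53 between TG MEP and the other groups, so the numbers were not taken to pair the samples. Arrays give no depth; the adult globins lie near the top of the signal scale, and how far that narrows their differences was not tested.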
